A study of Caenorhabditis elegans with 15 samples.

Results

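Fraction H3, a mixture enriched in oligomeric procyanidins from Combretum mucronatum, was given to worms over a 100-fold range, and the comparison described here sets the highest concentration against the lowest. It takes the 3 arrays titled H3 2 (2 mg/mL) and the 3 arrays titled H3 0.02 (0.02 mg/mL), chosen by title alone, which are 6 of the 15 arrays of the series, and it covers all 29317 probe sets. The other arrays, 3 in each group, hold worms given H3 at 0.2 mg/mL (H3 0.2), worms given the crude hydroethanolic extract RE at 0.2 mg/mL as titled (another label states 2 mg/mL), and NK worms, the negative control with neither extract nor fraction. By the study's methods, NK worms were given the solvent DMSO, which also served to dissolve extract and fraction in the other groups. All groups were wild-type N2 Caenorhabditis elegans, young adults fed on E. coli before they were incubated with the test solution (6 h, 20 °C). The study's methods give 2 mg/mL as a concentration that kills a small share of worms in 6 h. How many worms of each pool had died is not given in the sources used here. Each sample was the total RNA of a pool of whole worms, hybridised to an Affymetrix Gene ST array of the worm genome. In RNA of whole worms, fewer cells of a type and less RNA per cell cannot be told apart.

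Procyanidins are condensed tannins, chains of flavan-3-ol units that bind and precipitate proteins, above all proteins rich in proline. Mammals that eat tannin-rich plants secrete proline-rich proteins in their saliva, which bind tannins. The flavan-3-ol units carry catechol groups, the kind of group that catechol-O-methyltransferases methylate. In C. elegans, compounds taken up with food first meet the intestine, whose cells secrete lysozymes, saposin-like proteins and cysteine peptidases.

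Values are log2 expression values, so that a difference of 1 is a 2-fold change. Differences are H3 2 minus H3 0.02, and a probe set was said to rise or fall where it differed 2-fold or more and its p from limma, fitted to all 15 arrays and adjusted after Benjamini and Hochberg, was no more than 0.05. A principal component with 52.0% of the variance parted the arrays into sets A and B. H3 2, H3 0.02 and NK each have replicates 1 and 2 in set A and replicate 3 in set B, so that the difference between H3 2 and H3 0.02 is the same with and without the set as a block and only its error changes. H3 0.2 and RE have replicate 1 in set A and replicates 2 and 3 in set B. Array medians were 3.54 to 3.65, and a group below them was not shown to be above background. Markers of adults were high on all arrays: the adult cuticle collagen col-19 was at 10.83, 11.14 and 10.77 in H3 2 worms and at 11.33, 11.46 and 10.97 in H3 0.02 worms, and the yolk protein gene vit-6 was at 12.37, 12.58 and 13.13 in H3 2 worms and at 12.87, 12.95 and 13.05 in H3 0.02 worms. The arrays of the groups overlapped for either gene.

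Of 29317 probe sets, 9 rose (0.0307%) and 2 fell (0.00682%) over the 100-fold range, together 0.0375%. At an unadjusted p under 0.05 there were 688 higher (2.35%) and 600 lower (2.05%) probe sets, 4.39% of all, and the fit blocked by array set had 8.79% (4.36% higher, 4.43% lower). In that fit 21 rose (0.0716%) and 17 fell (0.058%), and these 38 (0.13%) held all 11 of the first count. The 21 hold 20 distinct rows of values, since a probe set is present in identical copies. The median difference of all probe sets was 0.01, and 52.7% were above 0.

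T22D1.2, which encodes a proline-rich protein like those of human saliva, had the widest difference of the 11. Its value was 12.48, 12.54 and 12.18 in replicates 1, 2 and 3 of H3 2, against 7.93, 7.55 and 5.57 in those of H3 0.02. The H3 2 arrays lay close together (SD 0.19) and the H3 0.02 arrays were spread more widely (SD 1.27), with the array of set B lowest in both groups. Set A gave a difference of 4.77 and set B one of 6.61. On the linear scale H3 2 worms were 41.7-fold above H3 0.02 worms (95% confidence interval of the log2 difference 4.33 to 6.43, adjusted p from limma at most 0.00663 when any 1 of the 6 arrays was left out). From NK upwards, the means were 2.52, 7.02, 10.66 and 12.40 at 0, 0.02, 0.2 and 2 mg/mL. In the fit blocked by array set, the step from 0.02 to 0.2 mg/mL was 3.89 (adjusted p = 0.00224) and the step from 0.2 to 2 mg/mL was 1.49 (adjusted p = 0.45), and without the block neither step passed (adjusted p = 0.0939 and 0.978).

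T22D1.21, a noncoding RNA, lies across the start of T22D1.2 on the other strand. T22D1.2 is annotated on chromosome IV from 6921855 to 6922852 and T22D1.21 from 6921836 to 6921946 (build WBcel235), so that they share 92 bases, and the array's annotation places T22D1.2 on the plus and T22D1.21 on the minus strand. Values of T22D1.21 were 10.32, 10.50 and 9.84 in H3 2 worms and 5.58, 5.35 and 4.46 in H3 0.02 worms. No array of one group came near the other, and set B was again lowest in both. Its means ran through 3.96, 5.13, 7.98 and 10.22 at 0, 0.02, 0.2 and 2 mg/mL, and with the array set as a block both 10-fold steps passed (3.09, adjusted p = 0.000163, and 2.00, adjusted p = 0.0264; without it, adjusted p = 0.0939 and 0.373). Whether each probe set reads RNA of its own strand alone was not tested. The next genes on either side had means below the array medians in both groups. T22D1.18 was at 1.29 ± 0.28 in H3 2 worms and 1.29 ± 0.15 in H3 0.02 worms (SD, n = 3 each). gtnt-47 was at 2.90 ± 0.65 in H3 2 worms and 1.73 ± 0.26 in H3 0.02 worms (SD, n = 3 each), a difference of 1.16 that did not pass (adjusted p = 0.707 from limma).

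**Figure D1:**
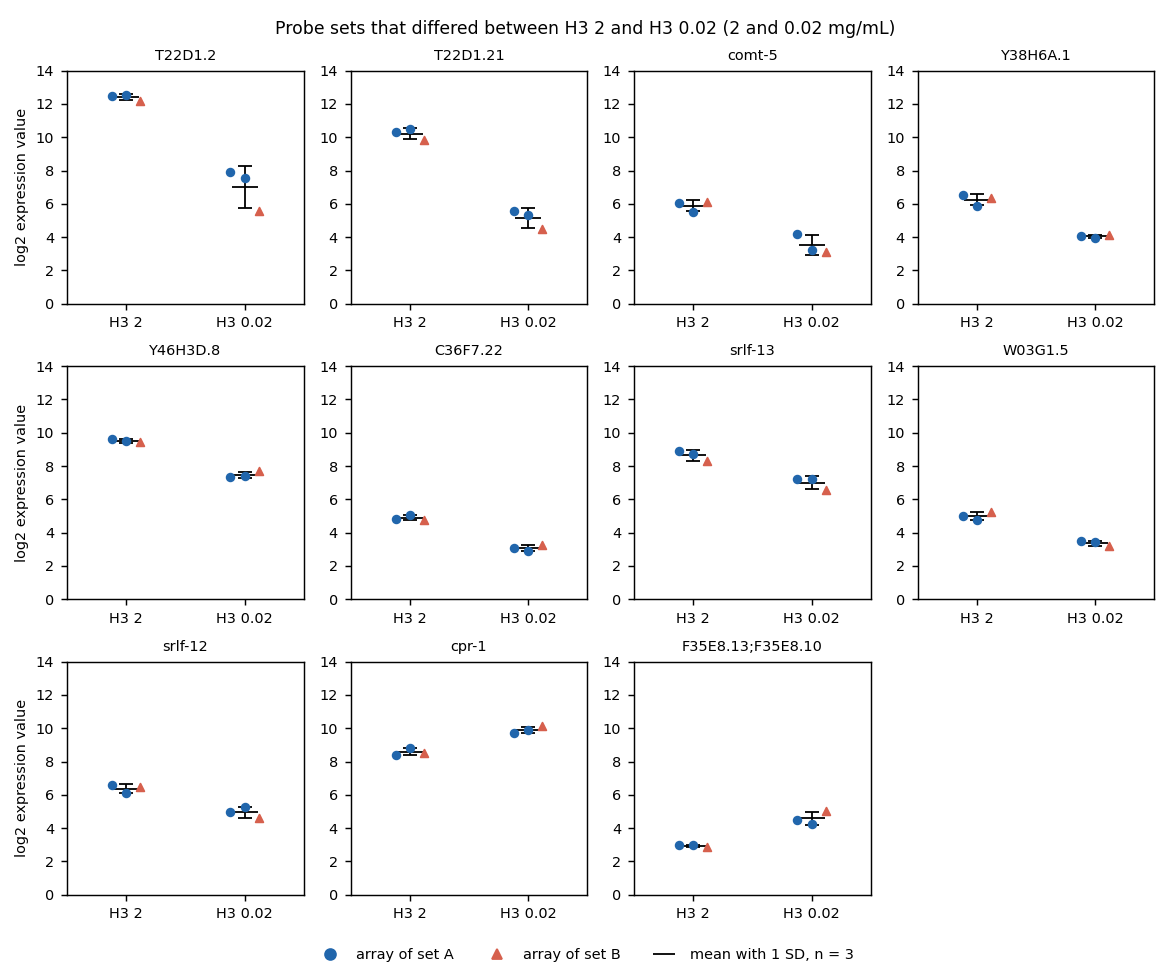
Log2 expression values (vertical axis, 0 to 14) of the 11 probe sets that rose or fell between H3 2 and H3 0.02, per array, with circles for arrays of set A, triangles for set B, and the mean with 1 SD (n = 3). The 9 that rose and the 2 that fell (cpr-1 and F35E8.13;F35E8.10) have H3 2 and H3 0.02 arrays that do not overlap.

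comt-5, a catechol-O-methyltransferase gene on chromosome V, was at 6.07, 5.49 and 6.12 in H3 2 worms and at 4.21, 3.20 and 3.13 in H3 0.02 worms, where replicates 2 and 3 lie below the array medians. The difference was 2.38 (95% confidence interval 1.78 to 2.98, adjusted p = 0.00613 from limma, or 0.0637 without H3 2 replicate 1). The middle concentration lay between, at a mean of 4.38, and NK worms were at 2.36. The upper 10-fold step was 1.51 and the lower one 0.86, and neither passed (adjusted p = 0.383 and 0.999).

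Y46H3D.8 was at 9.62, 9.48 and 9.42 in H3 2 worms and at 7.36, 7.38 and 7.69 in H3 0.02 worms, tight replicates around a difference of 2.03 (95% confidence interval 1.47 to 2.59). Its adjusted p of 0.0134 from limma became up to 0.108 when H3 2 replicate 1 or 2 or H3 0.02 replicate 1 or 2 was left out, whereas with the array set as a block it passed in all 6 such fits. Y38H6A.1 was at 6.55, 5.86 and 6.35 in H3 2 worms and at 4.04, 3.97 and 4.12 in H3 0.02 worms, a 4.62-fold difference that passed whichever array was left out (adjusted p at most 0.0104). Its value in NK worms was 2.52 ± 0.14 (SD, n = 3).

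W03G1.5 was at 5.01, 4.77 and 5.24 in H3 2 worms and at 3.48, 3.42 and 3.20 in H3 0.02 worms. All its H3 0.02 arrays lie below the array medians, so that the 3.12-fold difference is set against values not shown to be above background. The noncoding RNA C36F7.22 was at 4.82, 5.05 and 4.78 in H3 2 worms and at 3.05, 2.92 and 3.23 in H3 0.02 worms, also below the medians at the lower concentration. Its mean was 3.06 in NK worms, 3.07 at 0.02 mg/mL, 3.63 at 0.2 mg/mL and 4.88 at 2 mg/mL. Against NK, its difference was 0.01 at 0.02 mg/mL (adjusted p = 1.0) and 1.83 at 2 mg/mL (adjusted p = 5.11e-05). Blocked by array set, its upper step was 1.21 (adjusted p = 0.0339; 0.111 without the block). W03G1.5 and C36F7.22 passed in every fit that left out 1 array (adjusted p at most 0.00663 for either).

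Next to each other on chromosome IV (10891333 to 10896612, WBcel235) stand srlf-12, srlf-14 and srlf-13. srlf-13, which the study also lists as F13E9.4, was at 8.93, 8.71 and 8.29 in H3 2 worms and at 7.23, 7.25 and 6.55 in H3 0.02 worms. srlf-12 was at 6.57, 6.09 and 6.47 in H3 2 worms and at 4.98, 5.27 and 4.59 in H3 0.02 worms. Arrays of either gene did not overlap, and the differences were 1.64 and 1.43 (adjusted p = 0.0396 and 0.0383 from limma). srlf-14 between them had a difference of 0.89 that did not pass (95% confidence interval 0.33 to 1.46, adjusted p = 0.707). All 3 had low levels in NK worms (2.47, 2.87 and 2.89 for srlf-13, srlf-12 and srlf-14). Left out in turn, H3 2 replicates 1 and 2 and H3 0.02 replicates 1, 2 and 3 each ended the call of srlf-13, and H3 2 replicates 1, 2 and 3 and H3 0.02 replicates 1 and 3 each ended that of srlf-12 (adjusted p up to 0.251 for either). Of the other 13 genes of clone F13E9 with a probe set, none had an adjusted p under 1, and the differences ran from −0.24 for F13E9.13 to 0.35 for F13E9.9.

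cpr-1, a cathepsin B-like cysteine peptidase of the intestine, fell. It was at 8.42, 8.83 and 8.53 in H3 2 worms and at 9.74, 9.90 and 10.11 in H3 0.02 worms and the groups did not overlap. The difference was −1.32 (95% confidence interval −1.69 to −0.95), with −1.19 for set A and −1.58 for set B. Means of 10.95, 9.91, 9.39 and 8.59 at 0, 0.02, 0.2 and 2 mg/mL stepped down at each concentration. The call (adjusted p = 0.0142 from limma) was lost when replicate 1 or 3 of H3 2, or 2 or 3 of H3 0.02, was left out (adjusted p up to 0.117), and with the array set as a block it stood in all 6 fits. Of 11 cathepsin-type cysteine peptidase genes, cpr-1 was the only one to fall and none rose, beside 0.00682% and 0.0307% of all probe sets. At those shares few calls would be expected in a list of this size, so that nothing is read from the lack of others. Cysteine peptidases are a group the study singled out on these arrays, so that the count is no independent evidence. cpr-3 was at 4.09, 3.90 and 3.73 in H3 2 worms and at 4.07, 4.36 and 4.15 in H3 0.02 worms, so that the arrays of the groups overlapped.

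A probe set shared by F35E8.13 and F35E8.10 also fell, at 2.98, 2.98 and 2.84 in H3 2 worms and 4.52, 4.25 and 5.02 in H3 0.02 worms. Every H3 2 array was below the array medians, so that the 3.17-fold difference is set against values not shown to be above background. Its adjusted p of 0.0396 from limma was the weakest of the 11 beside srlf-13: leaving out any 1 of the 6 arrays ended the call (adjusted p up to 0.232), and it was 0.0574 when the replicate number was the block.

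A further 27 probe sets passed only with the array set as a block. Of these, numr-1, a nuclear protein gene induced by metals, was at 9.65, 9.53 and 8.95 in H3 2 worms and at 8.07, 7.82 and 6.73 in H3 0.02 worms. The array of set B was lowest in both groups, and within each set H3 2 was higher, by 1.65 in set A and 2.23 in set B. Its adjusted p from limma was 0.244 without a block, 0.00113 with the array set and 0.0156 with the replicate number, and with the array set it passed in all 6 fits that left out 1 array. The other 8 genes of the metal response list (mtl, numr and cdr genes) did not pass, where 0.0716% of all probe sets rose with the block. Among them numr-2 had a difference of −0.07, and the median of the list was −0.07.

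clx-1, named in the study with the proline-rich proteins, was at 11.16, 10.74 and 10.98 in H3 2 worms and at 9.31, 9.03 and 6.80 in H3 0.02 worms, so that replicate 3 carries much of the difference of 2.58 (1.78 for set A, 4.18 for set B). Its adjusted p was 0.425 from limma without a block and 0.0237 with the array set, which was lost when replicate 1 or 3 of H3 2, or 2 or 3 of H3 0.02, was left out (up to 0.0961). The third proline-rich protein gene, C50F7.5, was at 13.40, 13.43 and 13.18 in H3 2 worms and at 13.11, 13.02 and 12.89 in H3 0.02 worms, and its mean in NK worms was 10.01. Its H3 2 arrays were all above its H3 0.02 arrays, by a mean of 0.33 that did not pass (95% confidence interval −0.27 to 0.93).

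Among genes of defence, the C-type lectin clec-173 (9.59, 9.40 and 8.90 in H3 2 worms, 8.28, 8.46 and 6.95 in H3 0.02 worms) and nlp-26, of a family of small peptides (8.97, 8.99 and 7.99 in H3 2 worms, 7.98, 7.81 and 6.68 in H3 0.02 worms) rose with the block by 1.40 and 1.16 (adjusted p = 0.00692 and 0.00384). Both have their lowest array of each group in set B, with differences of 1.95 and 1.31 there and of 1.12 and 1.09 in set A. nlp-26 passed in all 6 fits that left out 1 array, whereas clec-173 did not without H3 2 replicate 1 or 3. clec-173 was 1 of 249 C-type lectin genes and nlp-26 was 1 of 63 antimicrobial peptide genes, and no other member of either list passed with the block, where 0.0716% of all probe sets rose.

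On the X chromosome, kreg-1 and F53A9.7 lie 6650 bases apart and rose with the block by 1.55 and 1.32 (adjusted p = 0.0204 and 0.0237; 0.0647 and 0.885 without). kreg-1 was at 4.96, 5.34 and 4.89 in H3 2 worms and 3.30, 4.06 and 3.17 in H3 0.02 worms. F53A9.7 was at 9.03, 9.11 and 8.20 in H3 2 worms and 7.51, 7.96 and 6.89 in H3 0.02 worms, and its mean was 6.98 in NK worms and 7.48 at 0.2 mg/mL. In both genes the groups stand apart, but kreg-1 passed in 1 and F53A9.7 in none of the 6 fits that left out 1 array (adjusted p up to 0.126 for either). Of the other 11 genes of clone F53A9, F53A9.1 (0.64), F53A9.6 (0.47), F53A9.9 (0.63) and the noncoding RNA F53A9.11 (0.50) were higher at an unadjusted p under 0.05, where 2.35% of all probe sets were, and none passed after adjustment (adjusted p with the block 0.207 to 0.438). F53A9.1 and F53A9.9 had means below the array medians in both groups (3.09 and 2.94 in H3 2 worms, 2.45 and 2.31 in H3 0.02 worms). F53A9.11 was near the medians, at 4.05 and 3.55.

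mua-6, an intermediate filament protein of the epidermis, rose with the block by 1.17 (adjusted p = 0.0271) although its arrays overlapped, at 9.14 to 11.04 in H3 2 worms and 7.46 to 10.19 in H3 0.02 worms. F57H12.6, the noncoding RNA F13H6.20 and a probe set shared by H12D21.3 and ZC412.8, which the array holds in 2 identical copies, had differences of 1.24, 1.52 and 1.55 (adjusted p with the block 0.03, 0.0342 and 0.0054). Of these genes and mua-6, the shared probe set alone passed in all 6 fits that left out 1 array. One more probe set that rose has no gene name here. In total 13 of the 38 passed with the block in every such fit, 12 of them higher and 1, cpr-1, lower. Both copies of the shared probe set are counted in the 12 and in the 38.

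Among those that fell with the block, the pud-1 genes had the widest difference. Named for proteins that are more abundant in daf-2 mutants, pud-1.1 and pud-1.2 share a probe set that was at 5.40, 5.59 and 5.35 in H3 2 worms and at 8.58, 8.69 and 6.90 in H3 0.02 worms. The H3 2 arrays were alike in both sets, and the H3 0.02 array of set B lay below those of set A. The difference was −2.61 (−3.14 for set A, −1.55 for set B; adjusted p = 0.0272 with the block and 0.254 without), and of the 6 fits that left out 1 array with the block it passed only without H3 0.02 replicate 3. A second probe set of the pair, with a difference of −2.47, passed likewise. pud-2.1;pud-2.2 had a difference of −2.40 that did not pass (adjusted p = 0.101 with the block), and pud-3 and pud-4, at −0.46 and −0.57, were below the array medians on most arrays. The study picked pud-1.1 from these arrays and then measured it by qPCR in separate experiments, where it reports a decrease that depended on the concentration of H3.

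The lysozyme lys-4 was at 4.95, 5.40 and 5.03 in H3 2 worms and at 6.67, 6.48 and 7.02 in H3 0.02 worms, without overlap. Its difference of −1.60 (95% confidence interval −2.15 to −1.04) had an adjusted p from limma of 0.0725 without a block and 0.0271 with the array set, which held only in the fit without H3 2 replicate 2 (up to 0.144 in the others). Another lysozyme, ilys-5, was at 5.62, 5.84 and 5.35 in H3 2 worms and at 6.94, 7.05 and 6.09 in H3 0.02 worms and did not pass (−1.09, adjusted p = 0.222 with the block). lys-1 had a difference of −0.74, short of 2-fold (adjusted p = 0.0291 with the block), and lys-3 one of 1.01 that did not pass (adjusted p = 0.244 with the block). Of 16 lysozyme genes, 11 were below 0 and 5 above, with a median of −0.17.

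vap-2 and scl-2 encode secreted proteins of the venom allergen family. vap-2 was at 4.92, 5.57 and 4.82 in H3 2 worms and at 7.18, 7.12 and 5.61 in H3 0.02 worms, a difference of −1.91 for set A and −0.80 for set B (adjusted p = 0.0237 with the block and 0.853 without). It passed with the block only when replicate 3 of H3 2 or of H3 0.02 was left out. scl-2 was at 10.55, 10.40 and 10.08 in H3 2 worms and at 11.79, 11.40 and 11.58 in H3 0.02 worms, a difference of −1.25 (adjusted p = 0.018 with the block and 0.16 without), which passed only in the fit without H3 0.02 replicate 2. NK worms lay between, at 10.77 ± 0.48 (SD, n = 3). Against NK, scl-2 was 0.83 higher at 0.02 mg/mL and 0.42 lower at 2 mg/mL, and neither passed (adjusted p = 0.191 and 0.5 from limma). Among the other scl genes, scl-3 and scl-5 had differences of −0.88 and −0.78 that did not pass, and of 24 genes 13 were above 0 and 11 below.

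F15E6.3 was at 6.18, 6.51 and 6.97 in H3 2 worms and at 7.80, 7.70 and 7.76 in H3 0.02 worms, with H3 0.02 arrays that lie close together. Set A gave a difference of −1.41 and set B one of −0.79. F15E6.3 passed with either block (adjusted p = 0.0278 for the array set and 0.036 for the replicate number), but not without a block (0.254) nor, with the array set, in any fit that left out 1 array. The noncoding RNA T28D6.15 (9.89, 10.91 and 11.10 in H3 2 worms, 11.83, 11.70 and 12.07 in H3 0.02 worms) and T02B11.4 (5.14, 4.65 and 3.99 in H3 2 worms, 6.01, 5.60 and 5.38 in H3 0.02 worms) fell with the block by 1.23 and 1.07 (adjusted p = 0.0432 and 0.042). T28D6.15 passed only without H3 2 replicate 2 and T02B11.4 only without H3 2 replicate 1. A further 7 that fell have no gene name here, with differences of −2.01 to −1.11 (adjusted p 0.0145 to 0.0432 in the blocked fit). Their probe set numbers lie close together, from 18635237 to 18635397, and whether they read worm genes is not known here. In all 7 the H3 2 mean was below those of all other groups. Probe set 18635239, for one, was at 4.60 in H3 2 worms and at 6.38, 6.30, 6.29 and 6.76 in H3 0.02, H3 0.2, RE and NK worms.

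The arrays at 0.2 mg/mL have no part in the differences between H3 2 and H3 0.02, though their spread entered the fit that called the 38. The H3 0.2 mean lay between the H3 2 and H3 0.02 means for 21 of the 21 probe sets that rose with the block and for 16 of the 17 that fell. A wide difference leaves much room between the means, and the same held for 87.0% of the 54 probe sets that were 2-fold or more higher, for 91.8% of the 182 that were 2-fold or more lower and for 29.6% of all, so that nothing particular to the 38 is read from it. The single steps gave few calls: limma called 0 probe sets (0.0%) in the step from 0.02 to 0.2 mg/mL and 0 in the step from 0.2 to 2 mg/mL. With the array set as a block 2 rose in each step (0.00682%), T22D1.2 and T22D1.21 in the lower one and T22D1.21 and C36F7.22 in the upper one. At an unadjusted p under 0.05 there were 823 probe sets (2.81%) in the lower and 1216 (4.15%) in the upper step. The H3 0.2, RE and NK groups share no array with H3 2 and H3 0.02. The 21 that rose all had higher values at H3 0.2 than in NK worms, where 53.3% of all probe sets did, and in RE worms than in NK worms (52.2% of all probe sets). Of the 17 that fell, 16 had lower values at H3 0.2 than in NK worms (46.7% of all probe sets), and 16 in RE worms than in NK worms (47.8%), with scl-2 the exception in both.

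**Figure D2:**
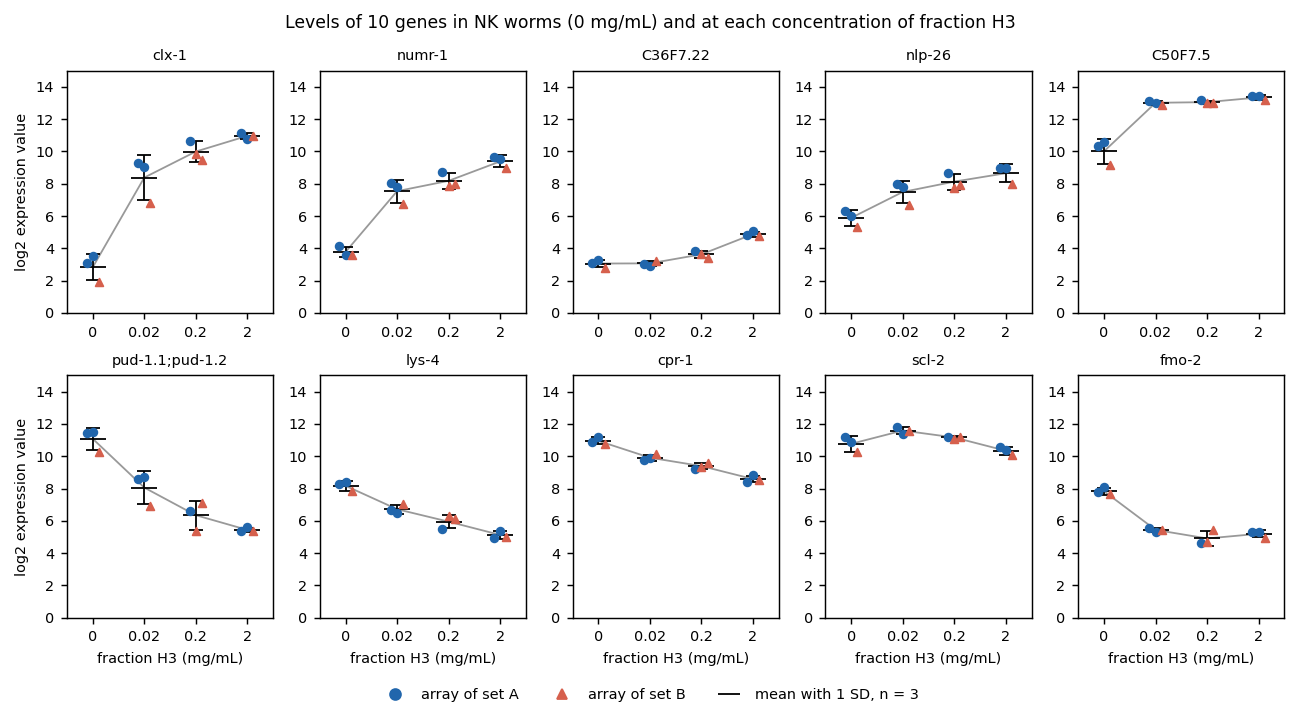
Log2 expression values (vertical axes, 0 to 15) of 10 genes or gene pairs in NK worms and at 0.02, 0.2 and 2 mg/mL of fraction H3 (horizontal axes, in equal steps and not to scale), per array, with circles for set A, triangles for set B, the mean with 1 SD (n = 3) and a line through the means. C36F7.22 was at 3.06 and 3.07 in NK and H3 0.02 worms and at 4.88 in H3 2 worms, whereas C50F7.5 and fmo-2 had reached 13.01 and 5.44 at 0.02 mg/mL and were at 13.34 and 5.20 at 2 mg/mL.

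To see how the wider response moved between the lowest and the highest concentration, probe sets were chosen by their difference between H3 0.2 and NK, or between RE and NK, without the values of the 6 arrays compared, though their spread entered the fit that chose them. Of 135 probe sets that rose at H3 0.2 against NK (0.46% of all), 76.3% were higher in H3 2 than in H3 0.02 worms, with a median difference of 0.32, beside 52.7% and 0.01 for all probe sets. Of 188 that fell at H3 0.2 against NK (0.641%), 84.6% were lower in H3 2 than in H3 0.02 worms, beside 47.3% of all probe sets, with a median of −0.27. The medians of the pairs of equal number were 0.38, 0.32 and 0.32 for the higher and −0.31, −0.29 and −0.30 for the lower list. Arrays of H3 2 and H3 0.02 did not overlap for 41 of the 135, all H3 2 arrays being above (4.66% of all probe sets), and for 50 of the 188, all below (3.53% of all probe sets). Past 2-fold, 17 of the 135 were higher (0.184% of all probe sets) and 14 of the 188 were lower (0.621%) in H3 2 worms, and none moved past 2-fold the other way. The lists from RE gave similar values, with 76.1% of 117 that rose against NK higher (0.399% of all, median 0.34) and 86.0% of 157 that fell lower (0.536%, median −0.34). H3 0.2 and RE were set against the same NK arrays, so that the lists share their choice in part. H3 0.2 and RE are also spread over the array sets otherwise than NK, so that the set can enter the choice of these unblocked lists. Chosen with the array set as a block, 348 rose and 303 fell at H3 0.2 against NK. Of these, 82.8% were higher and 85.8% lower in H3 2 than in H3 0.02 worms.

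**Figure D3:**
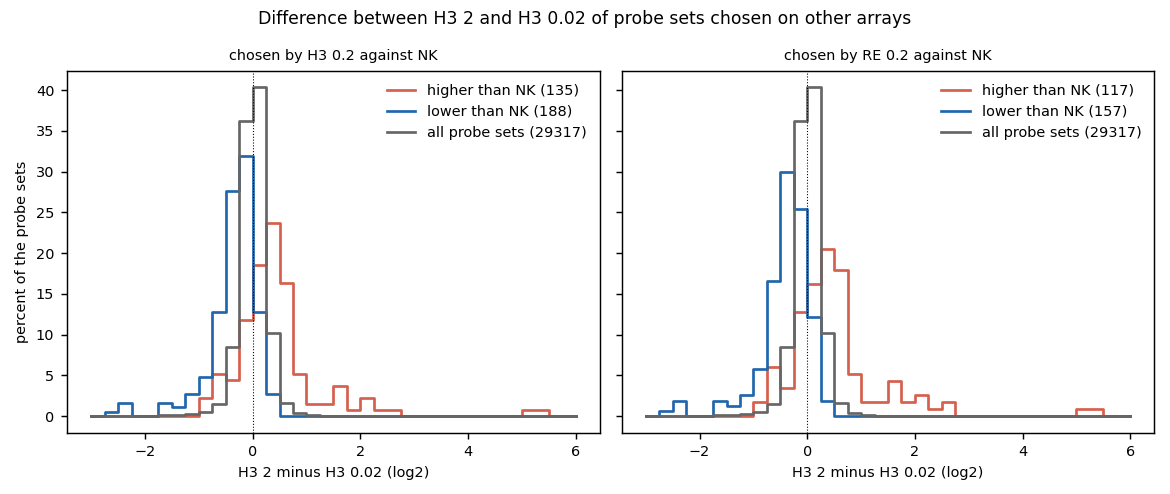
Share of probe sets (vertical axis, percent) by the difference between H3 2 and H3 0.02 (horizontal axis, log2, in bins of 0.25), for the probe sets that were higher or lower than NK at H3 0.2 (left panel) or in RE worms (right panel) and for all 29317 probe sets. The lists lie to the right and to the left of all probe sets, with medians of 0.32 and −0.27 in the left panel and of 0.34 and −0.34 in the right panel.

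Other genes differed from NK at both ends of the range. Against NK, 0.665% of all probe sets rose and 0.901% fell at 2 mg/mL, and 0.304% rose and 0.321% fell at 0.02 mg/mL. Of these, 84 rose and 93 fell at both concentrations. These lists were chosen with the arrays compared here and the shared NK arrays, and their values are a description. Of the 84, the 95% confidence interval of the difference between H3 2 and H3 0.02 lay within 2-fold for 44, and 8 were at least 2-fold higher at 2 mg/mL. Of the 93, it lay within 2-fold for 64, and 5 were at least 2-fold lower. fmo-2, a flavin-containing monooxygenase, was at 5.33, 5.33 and 4.95 in H3 2 worms and at 5.58, 5.31 and 5.44 in H3 0.02 worms, and NK worms were at 7.83. The glucuronosyltransferase gene ugt-44 was at 3.99, 3.36 and 3.46 in H3 2 worms and at 3.60, 3.89 and 3.51 in H3 0.02 worms, near the array medians, with NK worms at 5.61. Arrays of either gene overlapped, and the intervals of the differences were −0.72 to 0.24 and −0.54 to 0.42. K01A6.8 was at 8.30, 8.22 and 8.21 in H3 2 worms and at 7.61, 7.57 and 7.66 in H3 0.02 worms, tight replicates without overlap and a difference of 0.63, short of 2-fold (95% confidence interval 0.39 to 0.86; adjusted p = 0.113 from limma and 0.0342 in the blocked fit), and NK worms were at 4.96.

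Of 46 lists, 3 had a member that passed without a block (proline-rich proteins, catechol-O-methyltransferases and cathepsin-type peptidases) and 9 in the blocked fit. The catechol-O-methyltransferase list holds comt-5 alone, and the proline-rich list holds 3 genes that the study named from these arrays, so that neither count speaks for a family. None of 74 cytochrome P450, 67 UDP-glucuronosyltransferase, 48 glutathione S-transferase or 54 ABC transporter genes passed in either fit. Of all probe sets, 0.0375% passed without the block and 0.13% with it. Few calls would be expected at those shares in lists of this size, so that nothing is read from their absence. At an unadjusted p under 0.05, 3 P450 genes were higher and 3 lower, and 1 glucuronosyltransferase was higher and 4 lower, beside 2.35% higher and 2.05% lower of all probe sets. Of the glutathione S-transferases 2 were higher, of the ABC transporters 1, and none of either was lower. In the blocked fit the counts higher and lower were 4 and 5 for P450 genes and 4 and 10 for glucuronosyltransferases, beside 4.36% and 4.43% of all. There they were 5 and 0 for glutathione S-transferases and 4 and 0 for ABC transporters. ugt-13, at 4.87, 4.91 and 4.95 in H3 2 worms and 5.94, 5.54 and 5.70 in H3 0.02 worms, had no overlap and a difference of −0.82 (adjusted p = 0.0582 with the block). cyp-37B1 was at 4.87, 4.63 and 4.96 in H3 2 worms and 5.73, 5.46 and 5.47 in H3 0.02 worms, with a difference of −0.73 (adjusted p = 0.0746 with the block).

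Saposin-like proteins, some of which kill bacteria in the gut, had 20 of 28 genes below 0 and 5 lower at an unadjusted p under 0.05 (2.05% of all probe sets), with a median of −0.11. spp-8 was at 8.01, 7.90 and 7.83 in H3 2 worms and at 8.66, 8.67 and 8.65 in H3 0.02 worms. spp-3 was at 6.49, 6.25 and 6.25 in H3 2 worms and at 6.82, 7.04 and 7.36 in H3 0.02 worms. spp-14 was at 8.19, 8.07 and 7.57 in H3 2 worms and at 9.05, 8.87 and 8.46 in H3 0.02 worms. None of the 3 overlapped, and none passed (differences of −0.75, −0.74 and −0.85; spp-14 had an adjusted p of 0.037 in the blocked fit but was short of 2-fold). They were named for the smallest p of the list in this comparison, so that their lack of overlap is no added evidence. Of the 28 genes, 5 had H3 2 arrays all below the H3 0.02 arrays and 1 had them all above, beside 3.53% and 4.66% of all probe sets. Saposin-like proteins are another group the study singled out on these arrays.

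Of 63 ribosomal protein genes, 48 were below 0, by small amounts, and for 23 all H3 2 arrays lay below all H3 0.02 arrays, where this held for 3.53% of all probe sets. At an unadjusted p under 0.05, 14 were lower and none higher, beside 2.05% and 2.35% of all probe sets, and none passed after adjustment. The median difference was −0.11, with −0.13 for set A and −0.05 for set B, and the mean level over the list was 10.51 to 10.64 on the H3 2 arrays and 10.73 to 10.75 on the H3 0.02 arrays. rpl-38, with the widest difference in the list (−0.45), was at 10.27, 10.06 and 10.37 in H3 2 worms and at 10.69, 10.57 and 10.77 in H3 0.02 worms. Of 32 genes of the respiratory chain and ATP synthase, 6 had H3 2 arrays all below the H3 0.02 arrays and none had them all above. This compares with 3.53% and 4.66% of all probe sets, and the median of the list was −0.02. At an unadjusted p under 0.05, 4 of its genes were lower and none higher, beside 2.05% and 2.35% of all probe sets, and none passed after adjustment.

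None of 6 hsp-16 genes or gene pairs, 9 genes of the HSP70 list, 17 of endoplasmic reticulum stress or 10 of mitochondrial stress had an unadjusted p under 0.05, beside 4.39% of all probe sets. At that share few genes would be expected in lists of this size, so that nothing is read from their absence. The medians of the 4 lists were 0.02, 0.07, −0.04 and −0.06. In the blocked fit 1 gene of the mitochondrial list was lower at that p, beside 4.43% of all probe sets, and none of the other 3 lists. Of 70 abu and pqn genes, which encode proteins rich in glutamine and asparagine, 49 were above 0 with a median of 0.12. None had an unadjusted p under 0.05 without the block, beside 4.39% of all probe sets. With it 11 were higher and 2 lower, beside 4.36% and 4.43% of all probe sets, but none passed after adjustment. Markers of the intestine, germline, sperm, body muscle, neurons, epidermis and moulting (88 genes in 7 lists) had medians of −0.14 to 0.05. None of the 88 passed in either fit, where 0.0375% of all probe sets passed without the block and 0.13% with it. At an unadjusted p under 0.05, 1 was lower and none higher, beside 2.05% and 2.35% of all probe sets. This was the myosin light chain gene mlc-2 of the muscle list, where H3 0.02 replicate 1 stood above the rest (8.31, 8.17 and 8.22 in H3 2 worms, 9.85, 8.70 and 8.86 in H3 0.02 worms). Yolk protein genes were below 0 in all 5 cases (median −0.40), with −0.54 in set A and 0.08 in set B, and none passed.

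**Figure D4:**
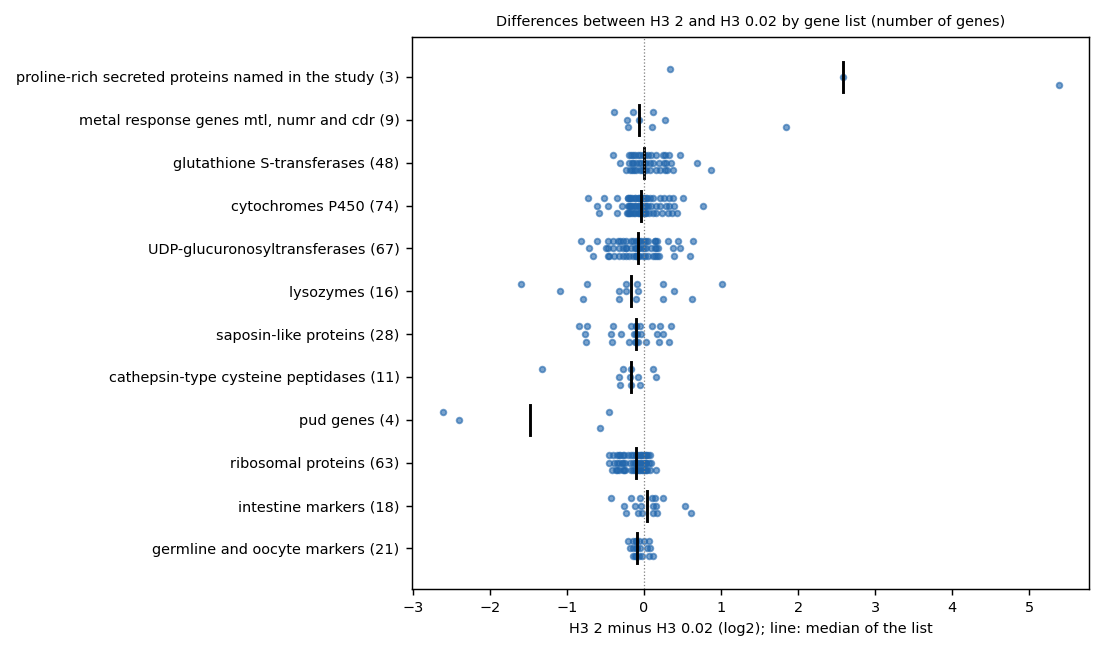
Difference between H3 2 and H3 0.02 (horizontal axis, log2) of the members of 12 gene lists, 1 point a gene or gene pair (points are spread vertically for legibility), with a line at the median of each list. The widest differences were those of T22D1.2 (5.38) and clx-1 (2.58) in the proline-rich list, numr-1 (1.84) in the metal response list, lys-4 (−1.60) among lysozymes, cpr-1 (−1.32) among peptidases and pud-1.1;pud-1.2 (−2.61) and pud-2.1;pud-2.2 (−2.40) in the pud list, and the medians of the marker lists lie at 0.03 and −0.09.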

How the data were processed

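Total RNA of whole worms was labelled and hybridised to Affymetrix Gene ST arrays, and the deposited values are log2 expression values, which the authors had made from the scanner files with RMA in Partek, after quality checks in Expression Console and Partek (versions not given in the sources used here). They were used as deposited, with all 29317 probe sets tested. Of these, 25605 are assigned to 1 gene, 592 to several and 3120 to no named gene, by the platform annotation, RefSeq (WBcel235) and, for 5, the annotation columns of a supplementary table of the study. lmFit with 1 mean per group over 15 arrays, a contrast and eBayes (limma 3.58.1 in R 4.3.3) gave each difference, with Benjamini-Hochberg adjustment over all probe sets. The arrays are 3 replicates per group, which limits the precision of every value. Alternatives were the array set or the replicate number as a block, only the 6 arrays, an intensity trend, the methods' test, a filter on dim probe sets, only probe sets of 1 gene, centring, no fold-change threshold and leaving out 1 array. Leaving out 1 array with the block was added after the data were seen. Residuals of H3 2 and H3 0.02 arrays of equal number correlated at 0.54, 0.42 and 0.80. The main fit did not pair the arrays. The numbers were taken to pair them only in the alternatives with the replicate number as a block and in the medians of pairs. Within set A, however, arrays of unlike number correlated at 0.49 and 0.45, and the difference between replicates 1 and 2 correlated only at 0.02. The correlations thus do not tell a pairing by number from the array set.

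The members, the gene lists, the array sets and the use of the set as a block were chosen with earlier results of these data known. Genes were named by a rule: all probe sets called, up to 15 of 1 gene in each direction with the block, up to 3 of each gene list by p, genes the study singled out, and the 5 higher and 5 lower with the smallest adjusted p at 0.02 mg/mL among those called against NK at both concentrations. Other members of the 38, lys-1, lys-3, pud-2.1;pud-2.2 and the genes of clones T22D1, F13E9 and F53A9 were named after their values were seen. A list counted 1 probe set per gene or gene pair, that of the smallest p. The fit was tested on simulated data. Columns of the authors' own comparisons were not used. No sequences were read.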

Additional observations from a re-analysis of the deposited data

How the results depend on the processing

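The 11 probe sets that passed between H3 2 and H3 0.02 became 38 with the array set as a block, 0 with only the 6 arrays fitted in limma (1011 at an unadjusted p under 0.05 there), 7 with the methods' test and 5 to 11 when 1 array was left out (leaving out H3 2 replicate 1 gave 5, and leaving out H3 2 replicate 2, H3 0.02 replicate 1 or H3 0.02 replicate 3 gave 7 each). A block by replicate number gave 12 over all 15 arrays, of which 10 were among the 11, 8 over the 9 arrays of NK, H3 0.02 and H3 2, and 1 over the 6 arrays alone. numr-1 and F15E6.3 passed with it and the F35E8 pair did not, and it changed no other call in the fit over 15 arrays. With 1 array left out and the block by array set kept, 15 to 22 passed (15, 22 and 20 for replicates 1, 2 and 3 of H3 2; 17, 21 and 17 for those of H3 0.02). An intensity trend gave 8, dim probe sets left out 13, only probe sets of 1 gene 10, arrays centred on their medians 11 and no fold-change threshold 12. The steps between neighbouring concentrations gave 0 and 0 probe sets, and 2 and 2 with the array set as a block. Lists chosen with that block held 348 and 303 probe sets with medians of 0.35 and −0.31 (H3 0.2 against NK). Those from RE against NK held 318 and 289 with medians of 0.38 and −0.35. No named gene changed its direction under any alternative. Why the calls depend on the arrays fitted was not tested. Signal near the array medians limits the fold-changes of W03G1.5, C36F7.22, comt-5 and the F35E8 pair.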
